A study of Homo sapiens with 24 samples.

Results

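The genes described here were 10 components of the Notch pathway: the receptors NOTCH1, NOTCH2 and NOTCH3, the ligands DLL1, DLL3 and JAG1, and the transcriptional repressors HES1, HES5, HEY1 and HEY2. They were taken from a table of raw counts by matching the gene identifiers of the table to these symbols, and all 10 were found among the 61551 genes used. RNA was sequenced from H9 cells, an established human embryonic stem cell (hESC) line, with 4 genotypes at HAR123, a noncoding human accelerated region in an intron of SMG6. hHAR123 cells were wild type, HAR123-KO cells had both alleles deleted with CRISPR-Cas9, and in cHAR123 and mHAR123 cells the human element was replaced by its chimpanzee or mouse counterpart. Each genotype was sampled as untreated hESCs and after 5 days with Noggin at 500 ng/ml and SB431542 at 10 µM, inhibitors of BMP and of activin and TGF-β signaling that drive hESCs to neuroectoderm, with 3 libraries in each of the 8 groups. All 4 genotypes, wild type included, were represented by a pair of independent clones, and the labels do not say which library came from which clone. With 3 libraries in a group, at least 2 of them therefore share a clone unless clones were mixed, so they are not 3 independent lines. The SDs and p-values below measure the spread between libraries, part of which may be technical.

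Notch signaling works by contact between neighboring cells. A ligand of the Delta or Jagged family on one cell binds a Notch receptor on the next, the receptor is cut by ADAM metalloproteases and then by γ-secretase, and its intracellular domain enters the nucleus and joins RBPJ and a Mastermind protein on target genes. HES and HEY genes are the classic direct targets, and their products repress proneural genes, which keeps neural progenitors from differentiating. In the neural tube HES1 and HES5 are known as maintainers of progenitors, and Fringe enzymes such as LFNG modify the receptors and change their response to Delta and Jagged ligands.

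Library totals ran from 21022748 to 35198684 counts, and the 10 highest genes took 10.1% to 13.0% of them. Summed levels of 6 pluripotency markers lay between 4213 and 4501 CPM (a gene's count relative to its library's total) in the hESC libraries and between 1484 and 1755 CPM in neuroectoderm, and those of 8 neuroectoderm markers between 29.7 and 42.7 CPM in hESCs and between 865 and 1275 CPM in neuroectoderm. The deleted element is noncoding and intronic, so a table of gene counts holds no row that could check the deletion. In neuroectoderm the base means of the columns labeled cHAR123 matched the list that the study gives for mHAR123, and the reverse, whereas the other lists of the study matched their labels. The labels were kept here. Under the other assignment the cHAR123 and mHAR123 neuroectoderm levels below would be exchanged, as would their differences from hHAR123 and HAR123-KO neuroectoderm. The differences between these groups would change sign. Their changes from hESCs would not be exchanged but would take new values. Values of hHAR123 and HAR123-KO cells, and all values of hESCs, do not depend on the assignment.

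Promoters of HES1, HES5 and HEY2 are printed because these 3 genes are Notch targets that moved differently in the comparisons below. Each run covers 250 bases before and 50 bases after the RefSeq start (GRCh38.p14), 5′ to 3′ on the strand of the gene, and capitals mark GTGGGAA or its reverse complement TTCCCAC, the letters bound by RBPJ. The HES1 window is chr3:194135898-194136197, the HES5 window chr1:2530214-2530513 and the HEY2 window chr6:125749382-125749681, whose start lies inside the gene as counted.
HES1: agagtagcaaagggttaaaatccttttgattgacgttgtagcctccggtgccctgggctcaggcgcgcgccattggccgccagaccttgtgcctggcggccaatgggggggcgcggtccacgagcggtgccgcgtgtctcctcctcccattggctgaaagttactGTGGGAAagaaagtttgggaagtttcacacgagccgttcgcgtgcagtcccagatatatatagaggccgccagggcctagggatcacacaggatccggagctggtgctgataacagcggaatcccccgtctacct
HES5: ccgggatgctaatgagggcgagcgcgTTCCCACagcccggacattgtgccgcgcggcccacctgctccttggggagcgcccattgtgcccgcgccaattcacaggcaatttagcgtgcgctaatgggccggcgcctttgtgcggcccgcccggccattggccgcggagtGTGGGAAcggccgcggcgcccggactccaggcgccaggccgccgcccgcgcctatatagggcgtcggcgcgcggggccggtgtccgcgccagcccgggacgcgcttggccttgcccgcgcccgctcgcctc
HEY2: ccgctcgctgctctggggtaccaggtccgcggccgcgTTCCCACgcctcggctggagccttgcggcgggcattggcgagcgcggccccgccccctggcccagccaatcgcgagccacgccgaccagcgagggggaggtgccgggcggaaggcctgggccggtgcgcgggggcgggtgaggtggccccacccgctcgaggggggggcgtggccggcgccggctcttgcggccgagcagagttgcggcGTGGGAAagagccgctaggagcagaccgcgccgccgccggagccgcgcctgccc

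The RBPJ letters were found once in the HES1 window, at position -85 from the start, and in both orientations in the HES5 window, at -224 and -81, and in the HEY2 window, at -213 and -4. Of 35116 promoters of the same length, 6.25% held at least 1 copy on either strand and 0.248% held 2 or more. Of the 7 member genes whose promoter was searched these 3 had a match, and NOTCH1, NOTCH2, NOTCH3 and JAG1 had none. Promoters of 36 other pathway genes were searched too, and 3 had a match. Among the other pathway genes called lower in HAR123-KO neuroectoderm below, HES4 had a match and HES2, HES3 and NRARP had none. LFNG and MFNG were not searched. Promoters of DLL1, DLL3 and HEY1 were not searched. E box letters (CACGTG, present in 7.26% of all promoters) were in none of the 3 windows, and N box letters (CACNAG or CTNGTG, 38.0% of all promoters) were found 4 times in that of HES1 alone. These are matches of letters and not bound sites.

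On the GRCh38 assembly the receptor genes lie at chr9:136494433-136546048 (NOTCH1), chr1:119911553-120100779 (NOTCH2) and chr19:15159038-15200995 (NOTCH3), all on the minus strand. The ligand genes lie at chr6:170282206-170306565 (DLL1, minus strand), chr19:39498895-39508481 (DLL3, plus strand) and chr20:10637684-10673999 (JAG1, minus strand). The repressor genes lie at chr3:194136148-194138732 (HES1, plus strand), chr1:2528745-2530263 (HES5, minus strand), chr8:79762371-79767857 (HEY1, minus strand) and chr6:125747664-125761269 (HEY2, plus strand). Counts were summed over all exons of a gene.

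The question put to the neuroectoderm libraries was how loss of HAR123 changed gene expression at this stage. DLL1 and HES5 were lower in HAR123-KO cells than in hHAR123 cells by 3.89-fold and 8-fold, and they were the 2 of the 10 genes called as differentially expressed, that is, with an adjusted p below 0.01 in edgeR's quasi-likelihood test and a log2 fold change beyond 1 in either direction. All genes tested gave 9.45% by the same rule. Below the fold threshold JAG1 and NOTCH3 were also lower in HAR123-KO cells and NOTCH2 and DLL3 were higher, whereas NOTCH1, HES1, HEY1 and HEY2 did not pass the test. In bulk RNA fewer cells that express a gene and less RNA per cell cannot be told apart.

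**Figure D1:**
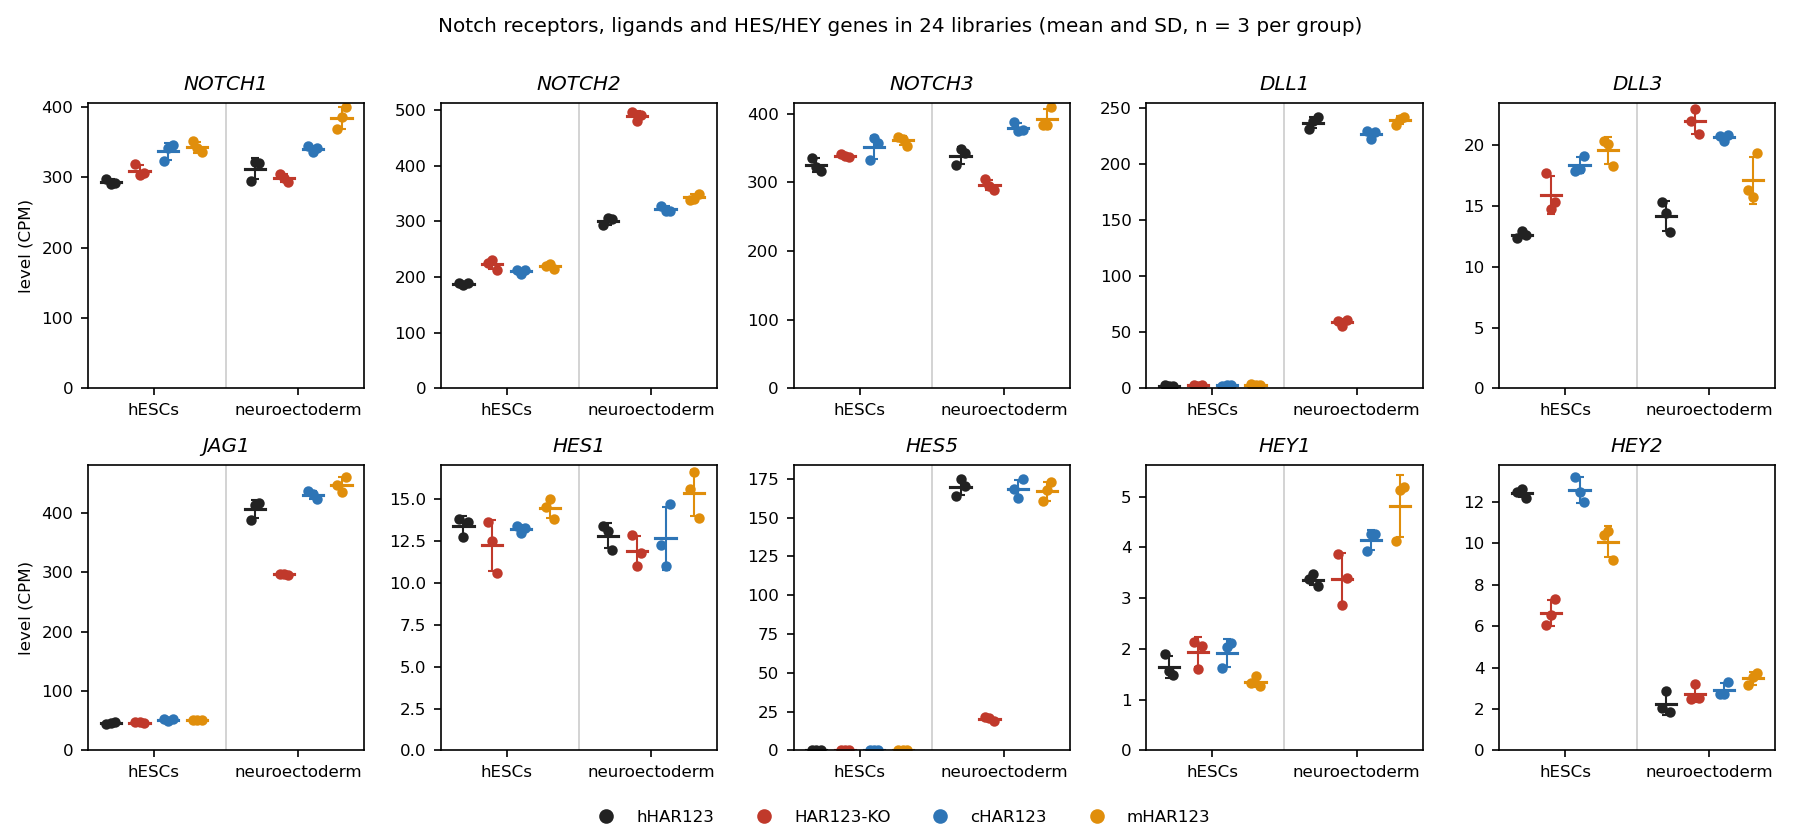
Level of each gene in CPM (linear axis from 0) in the 24 libraries, hESCs on the left and neuroectoderm on the right of each panel; points are libraries, bars the mean and SD of 3. DLL1 and HES5 stand near 0 in every hESC library, and in neuroectoderm the HAR123-KO libraries (55.2 to 61.0 CPM for DLL1, 19.0 to 21.3 CPM for HES5) lie far below the other 9.

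DLL1, a Delta ligand, was at 60.3, 55.2 and 61.0 CPM in the 3 HAR123-KO neuroectoderm libraries and at 231, 238 and 242 CPM in the hHAR123 libraries. The groups did not overlap, and the log2 fold change was -1.96 (SE 0.04, edgeR adjusted p = 4.93e-41). Exons of DLL1 share 370 bases with those of FAM120B on the opposite strand, and whether the counting used strand is not given in the sources used here. FAM120B was at 70.1 ± 1.92 CPM (SD, n = 3) in HAR123-KO and 85.6 ± 1.51 CPM in hHAR123 neuroectoderm, a far smaller gap than that of DLL1, and its part in the DLL1 value was not tested.

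HES5, a repressor that is a Notch target in neural progenitors, was at 21.3, 21.2 and 19.0 CPM in the HAR123-KO libraries. In hHAR123 libraries it was at 164, 175 and 170 CPM, so that the highest HAR123-KO library was well under the lowest hHAR123 library. Its log2 fold change was -3.00 (SE 0.05, edgeR adjusted p = 1.62e-45). ENSG00000272449, a noncoding gene on the opposite strand that overlaps the 5′ end of HES5, shares no exon base with it and was at 6.44 ± 0.526 CPM in HAR123-KO and 29.8 ± 1.59 CPM in hHAR123 neuroectoderm (SD, n = 3).

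JAG1, the other abundant ligand, was at 297, 297 and 295 CPM in HAR123-KO libraries and at 389, 413 and 416 CPM in hHAR123 libraries. That difference passed the p threshold but not the fold threshold (log2 fold change -0.40, SE 0.03, edgeR adjusted p = 3.22e-16). DLL3, a divergent Delta protein known as an inhibitor of Notch within the same cell, moved the other way. It was at 22.0, 23.0 and 21 CPM against 15.3, 14.4 and 12.9 CPM (log2 fold change 0.68, SE 0.07, edgeR adjusted p = 1.92e-11). The 3 ligands thus differed in direction as well as in size, with DLL1 and JAG1 lower and DLL3 higher in HAR123-KO cells. All 3 were past the p threshold, as were 44.1% of all genes tested.

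Among the receptors NOTCH2 was at 496, 480 and 490 CPM in HAR123-KO libraries and at 293, 305 and 305 CPM in hHAR123 libraries. The groups did not overlap, and the log2 fold change was 0.75 (SE 0.03, edgeR adjusted p = 1.17e-27). NOTCH2 has 4 near-identical partial copies, NOTCH2NLA, NOTCH2NLB, NOTCH2NLC and NOTCH2NLR, so reads may have been split or lost between them. The copies together were at 130 ± 2.01 CPM in HAR123-KO and 109 ± 3.67 CPM in hHAR123 neuroectoderm (SD, n = 3), and NOTCH2 with its copies was at 619 ± 6.51 and 410 ± 3.50 CPM. NOTCH3 fell slightly (log2 fold change -0.14, SE 0.03, edgeR adjusted p = 0.000115), and NOTCH1 was at 298 ± 5.86 against 312 ± 15.3 CPM and did not pass (log2 fold change -0.01, 95% interval -0.08 to 0.05).

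The other repressors were low in every neuroectoderm group, at 1.84 to 16.6 CPM. HES1 was at 11.9 ± 0.909 CPM in HAR123-KO and 12.8 ± 0.749 CPM in hHAR123 cells (SD, n = 3), a log2 fold change of -0.06 with a 95% interval of -0.22 to 0.11, so that a fall like that of HES5 lies outside its interval. HEY1 (interval -0.24 to 0.35) and HEY2 (interval -0.02 to 0.69) also missed the threshold. In all, 6 of the 10 genes had an adjusted p under 0.01 at any size, beside 44.1% of all genes tested, and the median log2 fold change was -0.04 over the 10 genes and 0.00 over all genes tested.

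**Figure D2:**
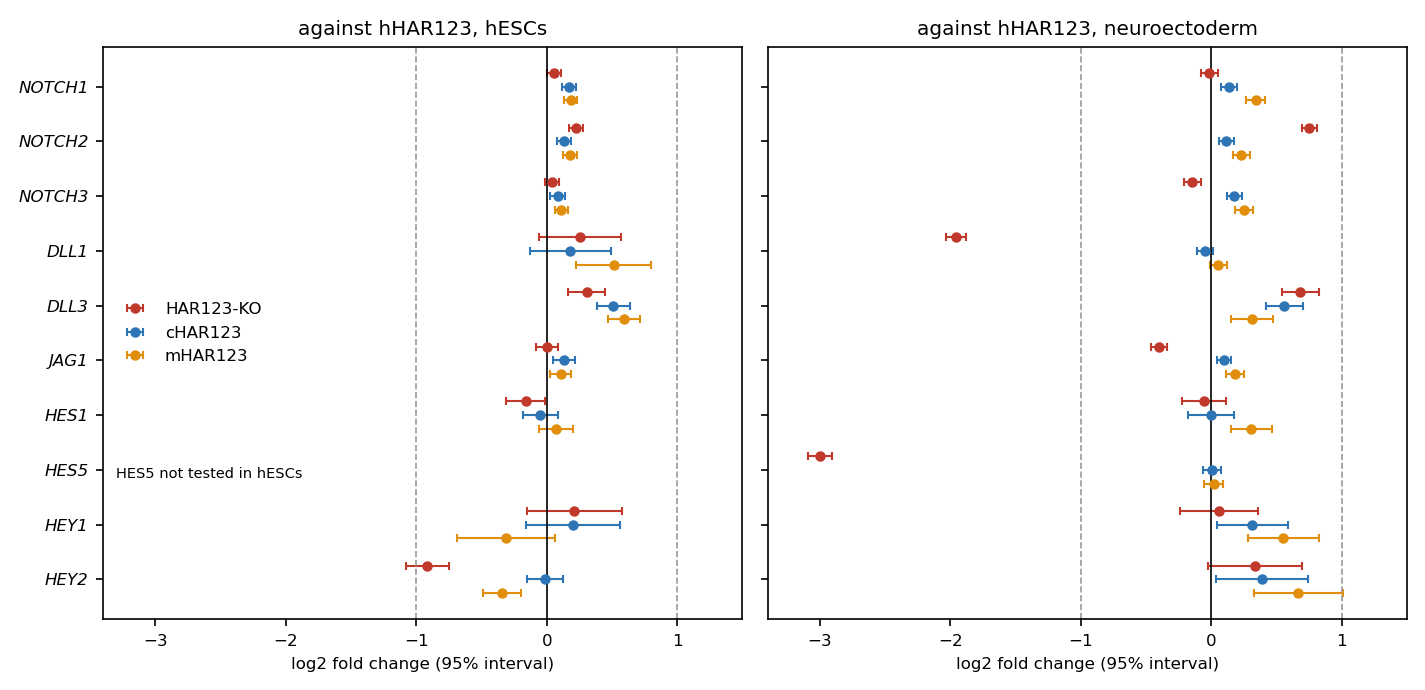
Log2 fold change against hHAR123 with its 95% interval for the 10 genes in hESCs (left) and neuroectoderm (right); dashed lines mark the fold threshold of 1. In neuroectoderm the HAR123-KO values of DLL1 (-1.96) and HES5 (-3.00) are the only ones beyond the dashed lines, and those of cHAR123 and mHAR123 cells for these genes lie near 0.

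Other genes of the pathway were read from lists of 52 symbols, and all 52 were tested. Of these, 1 was called higher and 6 were called lower in HAR123-KO neuroectoderm, and 7 higher and 24 lower had an adjusted p under 0.01 at any size. Over all genes tested these shares were 9.45% and 44.1%. The 7 other HES and HEY family and feedback genes held 4 of the genes called lower. HES3, a repressor of the neural tube, was at 3.70, 3.25 and 2.45 CPM in HAR123-KO libraries and at 39.8, 39.4 and 39.4 CPM in hHAR123 libraries. This was the largest fall of the 62 pathway genes, with a log2 fold change of -3.61 (SE 0.09, edgeR adjusted p = 1.45e-36).

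HES4, a family member that mice lack, was at 36.6 to 36.9 CPM in HAR123-KO and 83.5 to 86.7 CPM in hHAR123 libraries (log2 fold change -1.17, SE 0.04). NRARP, a feedback inhibitor that binds the Notch intracellular domain, was at 32.4 to 33.7 CPM and 77.4 to 83.5 CPM (log2 fold change -1.25, SE 0.05). HES2 was at 0.573 against 1.96 CPM on average (log2 fold change -1.73, SE 0.27). HES7 and HEYL were lower below the fold threshold (log2 fold changes of -0.86 and -0.42), and HES6 did not pass (0.14). Thus in this list the genes that moved, moved down, and HES6 was the only one of the 7 that missed the p threshold.

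LFNG, the Fringe enzyme, was among the most abundant genes of the pathway and was at 95.9, 94.7 and 88.7 CPM in HAR123-KO libraries and at 365, 391 and 381 CPM in hHAR123 libraries. Its log2 fold change of -1.97 (SE 0.04, edgeR adjusted p = 8.66e-43) was close to that of DLL1. MFNG, another Fringe, was at 3.30 ± 0.473 against 6.98 ± 0.401 CPM (SD, n = 3; log2 fold change -1.03, SE 0.13). The gene called higher was DNER, a noncanonical ligand of neurons, at 7.97 ± 1.01 against 3.24 ± 0.409 CPM (log2 fold change 1.34, SE 0.13).

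Of the 25 genes that process receptors and ligands, 2 were called, LFNG and MFNG, both lower, and 2 higher and 13 lower were past the p threshold at any size. The share called in this list was near that of all genes tested (9.45%), and 44.1% of all genes tested were past the p threshold. None of the 10 genes of the nuclear complex and receptor turnover was called. RBPJ, the DNA-binding partner of the receptor, was at 137 ± 1.35 CPM in HAR123-KO and 190 ± 10.6 CPM in hHAR123 neuroectoderm (log2 fold change -0.42), and MAML2, a Mastermind coactivator, at 41.6 ± 1.44 and 26.4 ± 0.734 CPM (log2 fold change 0.71). Other ligands passed the p threshold only, with log2 fold changes of -0.45 for JAG2 and -0.89 for DLK1.

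**Figure D3:**
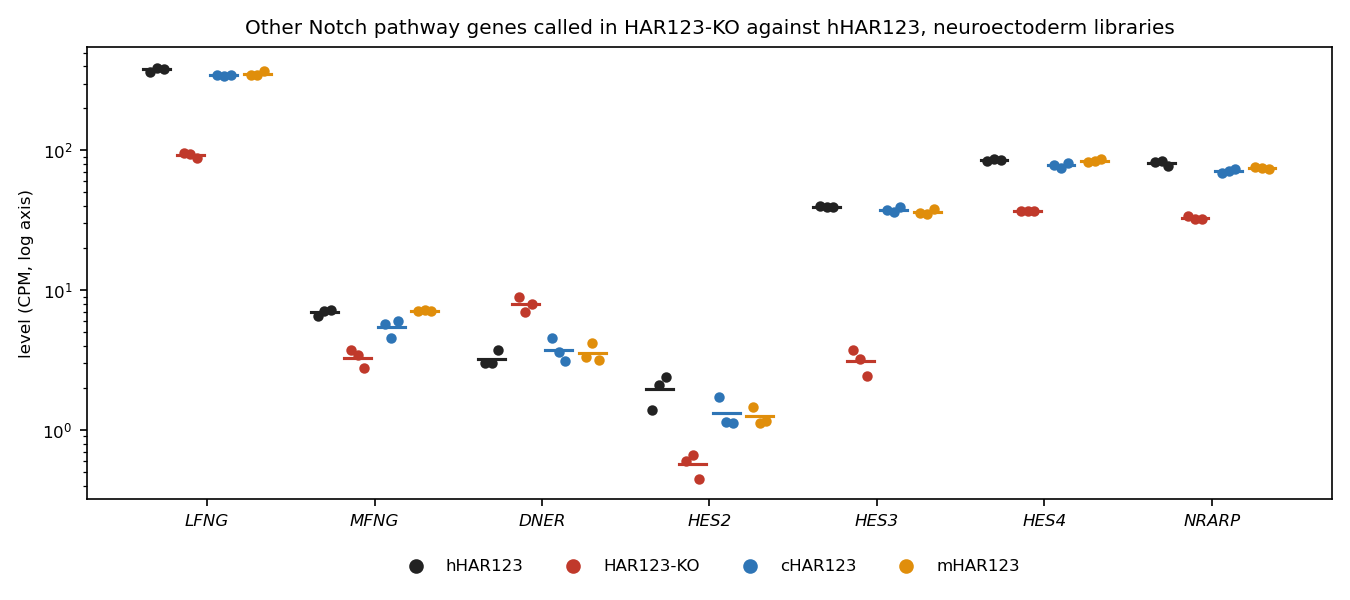
Level in CPM (log axis) of the 7 other Notch pathway genes called between HAR123-KO and hHAR123 neuroectoderm, in the 12 neuroectoderm libraries; points are libraries and bars the mean of 3. In HAR123-KO cells 6 genes lie below the other genotypes and DNER lies above them.

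Levels of marker genes differed between the same libraries. All 8 neural crest markers were called higher in HAR123-KO neuroectoderm, beside 9.45% of all genes tested called in either direction. Their summed level was 1733 to 1754 CPM against 205 to 214 CPM in hHAR123 cells, 369 to 378 CPM in cHAR123 cells and 406 to 408 CPM in mHAR123 cells. The 8 neuroectoderm markers summed to 865 to 873 CPM in HAR123-KO and 1139 to 1165 CPM in hHAR123 cells. Of these markers 3 were called lower and 2 higher, and 6 lower and 2 higher were past the p threshold at any size, beside 44.1% of all genes tested. SOX1 was at 25.8 ± 0.230 against 81.3 ± 1.59 CPM, and NR2F1 at 267 ± 1.29 against 84.1 ± 1.59 CPM (SD, n = 3). The part of these differences in the values of the Notch genes was not tested.

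Proneural genes, which HES proteins repress, did not move together. The list of 10 proneural and early neuron markers summed to 139 to 144 CPM in HAR123-KO and 135 to 142 CPM in hHAR123 neuroectoderm. Of these markers 2 were called higher and 1 lower, beside 9.45% of all genes tested. Past the p threshold at any size were 3 higher and 5 lower, beside 44.1% of all genes tested. NEUROG1 was called higher, at 11.4 ± 1.44 against 1.65 ± 0.187 CPM, whereas NEUROG2 was called lower, at 1.16 ± 0.268 against 2.61 ± 0.241 CPM (SD, n = 3). Markers of endothelium, a cell type with strong Notch expression, summed to 26.4 to 30.1 CPM in HAR123-KO and 13.8 to 14.7 CPM in hHAR123 neuroectoderm. The same list was higher in hESCs, at 151 to 161 CPM in HAR123-KO and 138 to 143 CPM in hHAR123 cells, so it is not specific to endothelium here. In neuroectoderm 2 of the 3 that could be tested were called higher. KDR was at 19.3 ± 1.01 against 7.89 ± 0.492 CPM and TEK at 4.59 ± 0.551 against 2.15 ± 0.161 CPM, while PECAM1 and CDH5, too low to test, were at most 0.296 and 0.193 CPM on average in both. The 7 mesoderm markers summed to 4.09 to 4.99 CPM in HAR123-KO and 3.60 to 3.85 CPM in hHAR123 neuroectoderm, and of the 3 that could be tested MEOX1 and FOXC2 were called higher, at 1.35 and 0.725 CPM against 0.637 and 0.325 CPM on average. The part of these markers in the values of the Notch genes was not tested.

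The knock-in lines address whether the chimpanzee or mouse element gives the same expression as the human one. In neuroectoderm none of the 10 genes was called in cHAR123 against hHAR123 cells (0.978% of all genes tested) or in mHAR123 against hHAR123 cells (1.03%). DLL1 was at 230, 222 and 229 CPM in the libraries labeled cHAR123 and at 235, 240 and 242 CPM in those labeled mHAR123. Its log2 fold change against hHAR123 was -0.05 (95% interval -0.11 to 0.01) and 0.05 (-0.01 to 0.12).

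HES5 was at 168, 163 and 175 CPM in the libraries labeled cHAR123 and at 160, 168 and 173 CPM in those labeled mHAR123. Its log2 fold change against hHAR123 was 0.00 (95% interval -0.06 to 0.07) and 0.02 (-0.06 to 0.09). These libraries overlapped those of hHAR123 cells. The 7 other pathway genes called between HAR123-KO and hHAR123 cells were not called in either knock-in line against hHAR123 cells, with log2 fold changes from -0.55 to 0.23 in cHAR123 and from -0.61 to 0.18 in mHAR123 cells.

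Smaller differences were seen in the receptors and in some of the other members. In cHAR123 cells NOTCH1, NOTCH2, NOTCH3 and DLL3 had an adjusted p under 0.01 (4 of 10, beside 9.89% of all genes tested), all higher, with log2 fold changes from 0.11 (NOTCH2) to 0.56 (DLL3). In mHAR123 cells 8 of the 10 passed this threshold, beside 14% of all genes tested, again all higher, from 0.18 (JAG1) to 0.67 (HEY2). DLL1 and HES5, the genes called in HAR123-KO cells, were the ones that did not. The count of 8 was 4 with DESeq2, 4 without hHAR123 replicate 3 and 5 without mHAR123 replicate 2 or 3, and the count of 4 in cHAR123 cells was 2 without cHAR123 replicate 1 or 3. These comparisons share the hHAR123 libraries with each other and with the HAR123-KO comparison.

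Set directly against HAR123-KO neuroectoderm, DLL1 and HES5 were called higher in both knock-in lines. The log2 fold changes were 1.94 (SE 0.03) and 3.03 (SE 0.04) in cHAR123 cells, where 7.61% of all genes tested were called. They were 2.04 (SE 0.04) and 3.04 (SE 0.04) in mHAR123 cells, where 7.33% were called, with edgeR adjusted p-values of at most 6.33e-41 in all 4 cases. No other member was called in either comparison. Past the p threshold only, NOTCH2 was lower in both knock-in lines than in HAR123-KO cells, with log2 fold changes of -0.61 and -0.50. JAG1 (0.52 and 0.61), NOTCH3 (0.35 and 0.42) and NOTCH1 (0.18 and 0.38) were higher in both. In mHAR123 cells DLL3 was also lower (-0.35), and HES1 (0.39) and HEY1 (0.52) were higher. Of all genes, 8271 of 21189 tested passed this threshold in cHAR123 and 7716 of 21138 in mHAR123 cells. Both comparisons share the HAR123-KO libraries.

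Between the knock-in lines themselves none of the 10 genes was called (0.261% of all genes tested). NOTCH1 and NOTCH2 passed the p threshold, beside 4.2% of all genes tested, at 385 ± 15.6 and 343 ± 5.93 CPM in cells labeled mHAR123 and 340 ± 4.24 and 322 ± 5.29 CPM in cells labeled cHAR123 (SD, n = 3). The log2 fold changes were 0.20 (SE 0.03, edgeR adjusted p = 2.61e-07) and 0.11 (SE 0.03, edgeR adjusted p = 0.00172), with the sign set by the labels. The count of 2 was 1 without cHAR123 replicate 2 or mHAR123 replicate 2 and 4 without mHAR123 replicate 3.

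In hESCs none of the 10 genes was called in any genotype against hHAR123 cells. The share of all genes tested that was called was 1.18% for HAR123-KO, 0.85% for cHAR123 and 1.23% for mHAR123 cells. HES5 could not be tested there, with 0 to 5 counts in a library. The difference nearest to the fold threshold was that of HEY2, which was at 6.04, 6.53 and 7.30 CPM in HAR123-KO and at 12.5, 12.6 and 12.2 CPM in hHAR123 hESCs. These groups did not overlap, and the log2 fold change was -0.92 (SE 0.08, edgeR adjusted p = 1.41e-11). It was -1.01 and called when HAR123-KO replicate 3 was left out.

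HEY2 was at 10.4, 10.6 and 9.23 CPM in mHAR123 hESCs (log2 fold change -0.34, SE 0.07, edgeR adjusted p = 0.000373) and at 12.6 ± 0.611 CPM (SD, n = 3) in cHAR123 hESCs, which overlapped hHAR123 cells. DLL3 was higher than in hHAR123 hESCs in all 3 other genotypes, at 12.4 to 12.9 CPM in hHAR123, 14.8 to 17.7 CPM in HAR123-KO, 17.9 to 19.1 CPM in cHAR123 and 18.3 to 20.3 CPM in mHAR123 cells. Its log2 fold changes were 0.30 (SE 0.07), 0.51 (SE 0.06) and 0.59 (SE 0.06). NOTCH2 was also higher in each, by 0.22, 0.13 and 0.18 on the log2 scale.

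An adjusted p under 0.01 at any size was reached by 3 of the 10 genes in HAR123-KO hESCs (NOTCH2, DLL3 and HEY2, beside 12.4% of all genes tested). In cHAR123 hESCs 3 reached it (NOTCH1, NOTCH2 and DLL3, beside 16.3%). In mHAR123 hESCs 6 reached it (NOTCH1, NOTCH2, NOTCH3, DLL1, DLL3 and HEY2, beside 19.2%). Some of these missed the threshold under part of the 13 alternatives. These were DLL1 (4 of 13) and NOTCH3 (2) in mHAR123, DLL3 (2) in HAR123-KO and NOTCH2 (1) in cHAR123 hESCs. JAG1 and HES1 did not pass in any of the 3 genotypes, with log2 fold changes from -0.16 to 0.13. All 3 comparisons share the hHAR123 hESC libraries. Of the 52 other pathway genes, DLK2 was called in HAR123-KO cells (log2 fold change 1.19) and HES4 in cHAR123 and mHAR123 cells (1.02 and 1.36), each at no more than 1.30 CPM on average in these groups.

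Whether the HAR123-KO difference itself differed between neuroectoderm and hESCs was tested as an interaction of genotype and stage, where 7.87% of all genes tested were called and 32.5% had an adjusted p under 0.01. DLL1 had a difference of log2 fold changes of -2.22 (SE 0.15, edgeR adjusted p = 2.32e-17), since it was at 2.96, 2.18 and 3.09 CPM in HAR123-KO hESCs and 2.56, 2.08 and 2.19 CPM in hHAR123 hESCs. HEY2 had a difference of 1.25 (SE 0.19, edgeR adjusted p = 5.21e-07), from its lower level in HAR123-KO hESCs and overlapping levels in neuroectoderm. HES5 did not pass at 0.01 (-2.56, SE 1.03, edgeR adjusted p = 0.041), and its hESC counts of near 0 give no usable fold at that stage. It passed with DESeq2 (adjusted p = 0.0099) and without HAR123-KO hESC replicate 3 (adjusted p = 0.00898).

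Below the fold threshold of the interaction, NOTCH2 (0.52), DLL3 (0.37), JAG1 (-0.41) and NOTCH3 (-0.19) passed the p threshold, which made 6 of 10 genes with the 2 called. Of the 52 other pathway genes 7 were called, beside 7.87% of all genes tested: DLK2, LFNG, KAT2B, HES2, HES3, HES4 and NRARP. In all 7 the log2 fold change of HAR123-KO against hHAR123 cells was lower in neuroectoderm than in hESCs, which is not a statement about their levels at the stages. Their differences of log2 fold changes ran from -3.37 (HES3) to -1.13 (NRARP).

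Over differentiation DLL1, JAG1 and HES5 rose and HEY2 fell in all 4 genotypes. The share of all genes tested that was called between stages was 45.9% in hHAR123, 41.1% in HAR123-KO, 42.7% in cHAR123 and 41.9% in mHAR123 cells, so a call at this contrast was common. DLL1 went from 2.27 ± 0.251 to 237 ± 5.24 CPM in hHAR123 and from 2.74 ± 0.494 to 58.8 ± 3.15 CPM in HAR123-KO cells (SD, n = 3). The log2 fold changes were 6.41 (SE 0.06) and 4.22 (SE 0.08), beside 6.22 in cHAR123 and 5.99 in mHAR123 cells. DLL1 thus rose in cells without HAR123 too, to a lower level, and the interaction above is the test of that difference between HAR123-KO and hHAR123 cells.

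HES5 was nearly absent from hESCs, with 8, 5, 5 and 6 counts summed over the 3 libraries of hHAR123, HAR123-KO, cHAR123 and mHAR123 cells. The 5 of HAR123-KO cells were all in replicate 2, and pooled they are 0.0583 CPM with an exact 95% Poisson interval of 0.0189 to 0.136 CPM. Ratios of the summed CPM, neuroectoderm to hESCs, were 2126 in hHAR123 cells (exact 95% interval 1079 to 4926), 351 in HAR123-KO cells (150 to 1082), 2841 in cHAR123 cells (1217 to 8752) and 2562 in mHAR123 cells (1177 to 6983). These intervals cover counting error only. The gene was therefore induced in every genotype, and the interval of HAR123-KO cells lies below those of cHAR123 and mHAR123 cells and overlaps that of hHAR123 cells by a few units.

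JAG1 rose with log2 fold changes from 2.46 (HAR123-KO) to 2.96 (mHAR123). HEY2 fell with log2 fold changes of -2.75 in hHAR123, -1.48 in HAR123-KO, -2.31 in cHAR123 and -1.70 in mHAR123 cells. The values of the knock-in lines rest on the column labels. Over all settings run, exchanged columns included, HEY2 ran from -2.40 to -2.02 in cHAR123 and from -1.99 to -1.53 in mHAR123 cells. HEY1 rose past the fold threshold in mHAR123 cells (log2 fold change 1.65, SE 0.16) and below it in the others (0.74, 0.61 and 0.89). With the cHAR123 and mHAR123 neuroectoderm columns exchanged it was called in both lines, at 1.14 and 1.40, and with total counts as library sizes it was called in hHAR123 and cHAR123 cells too, at 1.04 and 1.10.

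NOTCH2 rose in each genotype, by 0.39, 0.93, 0.41 and 0.48 on the log2 scale in hHAR123, HAR123-KO, cHAR123 and mHAR123 cells. In HAR123-KO cells it was called with total counts as library sizes (1.13). NOTCH3 was lower in HAR123-KO neuroectoderm than in HAR123-KO hESCs under every setting run (log2 fold change -0.39, range -0.44 to -0.19). In hHAR123 and cHAR123 cells the signs of NOTCH1 and NOTCH3 depended on the scaling. With the knock-in neuroectoderm columns exchanged, NOTCH1 and HES1 in cHAR123 cells also changed sign, to 0.021 and 0.049. In hHAR123 cells NOTCH1 had a log2 fold change of -0.20 with TMM factors and 0.091 with total counts as library sizes, and this change of scaling moved the median of all genes from 0.05 to 0.34. HES1 in hHAR123 cells kept its sign but missed the p threshold with total counts (-0.063, against -0.36 with TMM factors), as did NOTCH1 in HAR123-KO cells (-0.050 against -0.25).

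**Figure D4:**
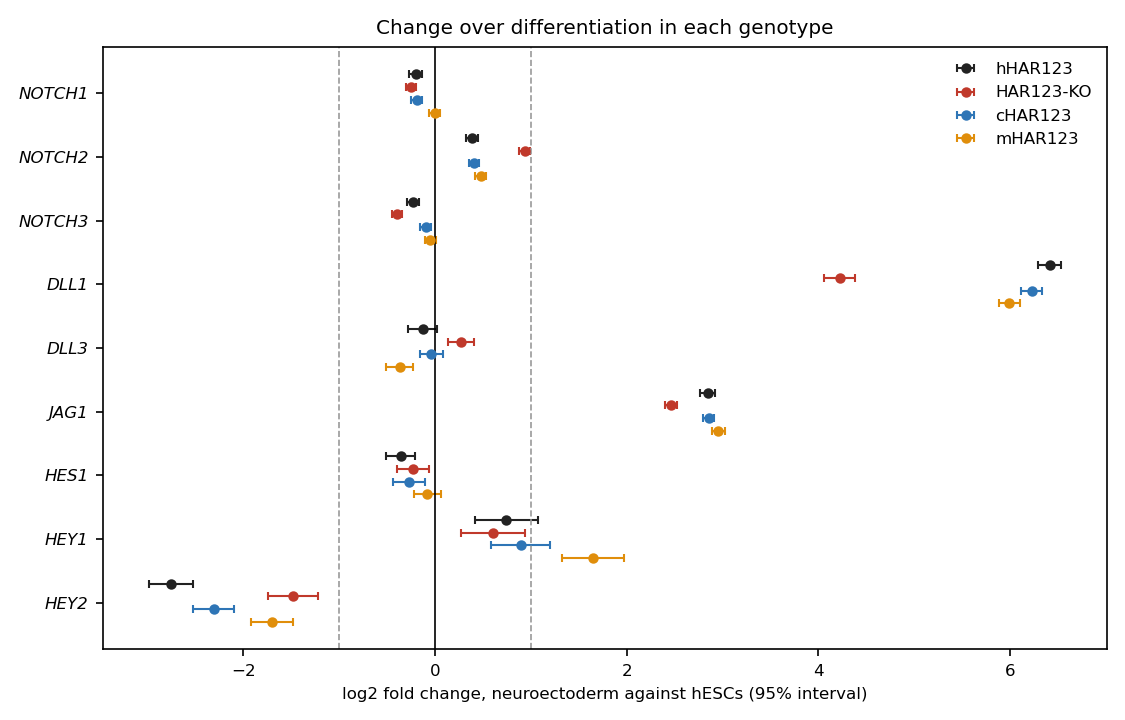
Log2 fold change from hESCs to neuroectoderm with its 95% interval in each genotype for 9 genes (HES5, near 0 in hESCs, is left out); dashed lines mark the fold threshold of 1. DLL1 rose in all 4 genotypes, by 4.22 in HAR123-KO cells and by 5.99 to 6.41 in the others, and JAG1 rose by 2.46 to 2.96. HEY2 fell, with overlapping intervals in HAR123-KO (-1.48) and mHAR123 cells (-1.70) under the labels kept. Over all settings run, exchanged columns included, HEY2 in mHAR123 cells ran from -1.99 to -1.53. The signs of NOTCH1 and NOTCH3 in hHAR123 and cHAR123 cells depend on the scaling, and in mHAR123 cells neither gene passed the p threshold. Those of NOTCH1 and HES1 in cHAR123 cells also depend on the labels of the knock-in neuroectoderm columns.

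Levels were also set between the genes, as CPM divided by exon length in kilobases (RPKM). In hHAR123 hESCs NOTCH3 (34.6 ± 1.04 RPKM, SD, n = 3) and NOTCH1 (23.4 ± 0.341) were the highest, followed by NOTCH2 (11.2), HES1 (6.50), and JAG1, DLL3 and HEY2 (4.97, 4.83 and 4.63), of which JAG1 and DLL3 differed by less than their spread. In hHAR123 neuroectoderm HES5 (128 ± 4.13 RPKM) and DLL1 (62.1 ± 1.37) came first, then JAG1 (43.7), NOTCH3 (36.0), NOTCH1 (24.9) and NOTCH2 (18.0), with HES1 (6.22), DLL3 (5.42), HEY2 (0.835) and HEY1 (0.613) last. The order was the same in the libraries labeled mHAR123, and in those labeled cHAR123 DLL3 stood above HES1. In HAR123-KO neuroectoderm HES5 (15.5 ± 0.988) and DLL1 (15.4 ± 0.824) had levels that did not differ beyond their spread and stood below JAG1 (31.9), NOTCH3 (31.4), NOTCH2 (29.2) and NOTCH1 (23.8).

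Over the 12 neuroectoderm libraries, among 17509 genes outside these lists whose mean reached 1 CPM, the genes with log2 CPM most like DLL1 were LHX5-AS1 and CA4 (Pearson r = 0.999 for both). Those most like HES5 were PAPLN and NOS2 (r = 0.999 for both). These values are descriptive, since the libraries fall into 3 that are low and 9 that are high, and any gene with that split gives an r near 1.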

How the data were processed

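RNA depleted of ribosomal RNA was sequenced as directional paired-end libraries. The deposited table holds raw counts: the authors aligned reads with STAR 2.5.2b to GRCh38 (Ensembl 106) and summed exon counts per gene with featureCounts, whose strand setting is not given in the sources used here. An entry broken over 3 lines was left out, which left 61551 of 61552 genes. Each comparison was fitted on its own libraries with edgeR 4.0.16 (R 4.3.3; filterByExpr, TMM, glmQLFit, glmQLFTest) and Benjamini-Hochberg adjustment over all genes tested. The SE was taken from the log2 fold change and the root of its F statistic. All 10 members passed the filter in neuroectoderm and 9 in hESCs. The script was tested on simulated data. Replicate pairs had chi-squares of 1.41 to 5.53 per degree of freedom, so no library was a duplicate. Base means of the study's comparison tables served the label check only, within 0.1%. Members and gene lists were chosen with earlier results of these data known. Named beyond the members were the pathway genes called in HAR123-KO against hHAR123 neuroectoderm and the 2 genes most like each called member. RBPJ, MAML2, JAG2, DLK1, HES6, HES7, HEYL, DLK2, KAT2B and single marker genes were chosen after their values were seen. Alternatives were DESeq2 1.42.0, its size factors in edgeR, no filter, shared fits, a replicate block, an adjusted p under 0.05 and leaving out each library. Total counts as library sizes and exchanged knock-in columns were added after seeing the data. One marker gene is not reported here.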

Additional observations from a re-analysis of the deposited data

Results flagged for a closer look

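In the interaction test in edgeR over 12 libraries, 6 members had a HAR123-KO difference that was not the same at both stages (adjusted p under 0.01). The share of all genes tested past this threshold was 32.5%. Of the 6 members, 2 also passed the fold threshold, as did 7.87% of all genes tested. For DLL1 the log2 fold change in neuroectoderm minus that in hESCs was -2.22 (SE 0.15, adjusted p = 2.32e-17). For HEY2 it was 1.25 (SE 0.19, adjusted p = 5.21e-07), and here the HAR123-KO hESCs were low (6.62 ± 0.635 against 12.4 ± 0.206 CPM, SD, n = 3) while neuroectoderm of both genotypes overlapped at 1.84 to 3.20 CPM.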

How the results depend on the processing

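For 87 member results with an adjusted p under 0.01, 1183 recalculations kept direction and side of the threshold in 1113 cases, missed the threshold in 64 and turned sign in 6. DLL1 and HES5 in HAR123-KO neuroectoderm stayed called in all 13 alternatives, with log2 fold changes from -2.01 to -1.92 and from -3.05 to -2.95. The 6 that turned sign were stage differences: with total counts as library sizes NOTCH1 became 0.091 and NOTCH3 0.061 in hHAR123 cells, and 0.016 and 0.11 in cHAR123 cells, and with knock-in columns exchanged HES1 became 0.049 and NOTCH1 0.021 in cHAR123 cells. The cause was not tested. Counts of members past the p threshold moved as follows. For cHAR123 hESCs 3 became 5 with total counts and 5 at an adjusted p under 0.05. For mHAR123 neuroectoderm 8 became 4 with DESeq2. Between knock-in lines 2 became 4 with no filter and 6 at an adjusted p under 0.05. Leaving out a library gave 2 to 5 in cHAR123 neuroectoderm, 4 to 8 in mHAR123 neuroectoderm, 1 to 4 between knock-in lines, and 0 to 1 members called in HAR123-KO hESCs. Over all genes DESeq2 called 152, 78 and 121 in HAR123-KO, cHAR123 and mHAR123 hESCs (edgeR 246, 178 and 259), and 115, 138 and 14 in cHAR123, mHAR123 and mHAR123 against cHAR123 neuroectoderm (edgeR 208, 219 and 55). Replicate numbers did not pair the libraries (correlations of same-numbered deviations from -0.05 to 0.06), and with the replicate block HAR123-KO neuroectoderm kept 2 members called and 6 past the p threshold. HEY1, HEY2 and hESC HES5 rest on few counts, which limits their precision.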
